A study of Mus musculus with 15 samples.

Results

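Tubulin isotypes were examined in the dorsal forebrain of mouse embryos at embryonic day (E) 18. The 10 genes described are the alpha isotypes Tuba1a, Tuba1b and Tuba1c and the beta isotypes Tubb2a, Tubb2b, Tubb3, Tubb4a, Tubb4b, Tubb5 and Tubb6. They were chosen by name, as the isotypes known from developing neurons together with close relatives, when earlier results of these data were already known. They are 10 of 53337 genes in the table, and 10 of the 16 alpha and beta tubulin genes in it. Transcript values were summed to genes, and the share of each isotype in the summed alpha or the summed beta values was computed for each library. The embryos were C57BL/6J offspring of wild-type dams that carried a subcutaneous osmotic minipump from before breeding. The pump released arginine vasopressin (AVP), a model of preeclampsia, or saline, which the labels call vehicle. The males comprised 4 with AVP and 4 with saline, the females 3 with AVP and 4 with saline, and 1 further AVP female had been excluded by the authors for high variance. Per the labels and methods, 16 embryos came from 8 litters and those of a group from separate litters, so that males and females of a treatment shared litters. The labels do not say which libraries are littermates. The p-values below measure the spread between these libraries. The comparisons ask whether gestational AVP went with other levels, or another mix, of tubulin isotypes in male or in female offspring.

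Alpha and beta tubulin form the heterodimer from which microtubules are built, and mammals carry several genes for each. The encoded proteins are nearly alike along their cores and differ most at the acidic C-terminal end, which faces outward on the microtubule and is bound or modified by other proteins. Tuba1a, Tubb2a, Tubb2b and Tubb3 are well known for high expression in young neurons, and mutations of their human counterparts cause malformations of the developing brain.

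The last 60 coding bases of beta isotypes, which encode that C-terminal end and the stop codon, are shown because the isotypes differ there most and because they show how few bases separate some pairs. They were read from the GENCODE M21 transcripts (GRCm38), 5′ to 3′ on the coding strand. Capitals mark bases without an identical partner in the alignment with Tubb2b, the most abundant beta isotype.
Tubb2b: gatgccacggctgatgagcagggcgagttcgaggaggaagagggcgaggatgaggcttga
Tubb2a: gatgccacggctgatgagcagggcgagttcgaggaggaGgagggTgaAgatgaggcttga
Tubb3: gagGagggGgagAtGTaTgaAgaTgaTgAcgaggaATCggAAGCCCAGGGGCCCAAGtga
Tubb4a: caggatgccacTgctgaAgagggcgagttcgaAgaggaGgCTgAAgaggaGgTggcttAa
Tubb4b: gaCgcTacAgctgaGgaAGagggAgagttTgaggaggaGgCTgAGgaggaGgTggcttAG
Tubb5: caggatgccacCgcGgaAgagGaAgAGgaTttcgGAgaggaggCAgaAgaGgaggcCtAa
Tubb2a differed from Tubb2b by 3 of these 60 bases, while Tubb3 had 30 in capitals, Tubb4a 11, Tubb5 16 and Tubb4b 17. The 3 bases of Tubb2a do not change the encoded amino acids, so the protein end shown is the same in Tubb2a and Tubb2b. Codons for glutamate made up 8 of the 20 codons in Tubb2b and 7 of 20 in Tubb3.

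Over the whole coding sequence, aligned bases were 98.3% identical between Tuba1a and Tuba1b, 97.6% between Tuba1a and Tuba1c, and 96.5% between Tubb2a and Tubb2b. The other pairs of beta genes were 80.7% to 86.3% identical. The 3 alpha genes lie near each other on chromosome 15. Tuba1b is at chr15:98931425-98934565, Tuba1a at chr15:98949837-98953703 and, on the opposite strand, Tuba1c at chr15:99029891-99038110. Tubb2a at chr13:34074274-34078007 and Tubb2b at chr13:34126748-34130466 are neighbours on chromosome 13. Tubb3 lies at chr8:123411424-123422015, Tubb4a at chr17:57080066-57087782, Tubb4b at chr2:25222160-25224702, Tubb5 at chr17:35833921-35838306 and Tubb6 on chromosome 18. In each member 1 protein-coding transcript held nearly all of the gene's value, with 96.97% on average in Tubb5, 97.9% in Tuba1b and more in the other 8. The quantification assigns reads by stretches of 31 bases, so stretches that 2 genes share cannot by themselves tell them apart. In the main transcript, 77.04% of such stretches of Tuba1a, 75.2% of Tuba1b and 63.9% of Tuba1c also occur in another gene's transcripts, pseudogenes included. The share was 56.4% for Tubb2a, 45.9% for Tubb2b and 64.6% for Tubb4b. It was 1.73% to 4.43% for Tubb3, Tubb4a, Tubb5 and Tubb6. Tuba1c shared 49.6% of its stretches with the far more abundant Tuba1a, and none of those outside its coding part with any gene. The split of reads among Tuba1a, Tuba1b and Tuba1c, and between Tubb2a and Tubb2b, is therefore uncertain.

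Values are TPM, transcript abundances per length that are scaled to the same total in every library. The paper gives only an average read number per sample, and the depth of each library is unknown. No counting interval or detection limit is therefore given. In every library the highest value belonged to the gene labelled Mir6236, with 4.44 to 7.501% of the total. All 10 markers of cortical neurons, among them Neurod6 and Tbr1, were detected in each library, with a summed level of 1147 to 1494 TPM. In saline male 12, a library labelled as male, Xist was at 266 TPM, and 4 Y-linked genes summed to 0.489 TPM. The other males had 0.121 to 1.13 TPM of Xist and 102 to 155 TPM of the Y-linked sum, so these transcripts go against its label, and those of the other 14 libraries matched theirs. It was analysed as labelled, so the results in males, over both sexes and for the interaction include it. Only some of these are also given without it. The libraries carry the numbers 1 to 8 or 13 to 20, a grouping the labels do not explain, with 7 libraries in the first block and 8 in the second. Only AVP female 3 of the AVP females is in the first block, and the other groups have 2 libraries in each.

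Tuba1a, the main alpha isotype of young neurons, was second in mean level among all genes. Its level was 16424, 13374, 14026 and 14538 TPM in saline males 4, 5, 12 and 13 and 14952, 15971, 12996 and 12489 TPM in AVP males 1, 2, 8 and 9. Saline females 6, 7, 14 and 15 had 15666, 15219, 14977 and 14149 TPM, and AVP females 3, 10 and 11 had 15620.1, 11934 and 12159.6 TPM. AVP females 10 and 11 were the lowest of the 15 libraries and AVP female 3 was within the range of the saline females, so the groups overlapped in both sexes.

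Tuba1b, an alpha isotype of dividing as well as resting cells, was present at 1013, 899, 841 and 901 TPM in saline males and 938, 1026, 811 and 871 TPM in AVP males, in the same order of libraries as for Tuba1a. It was 1040.3, 969, 905 and 937 TPM in saline females and 983, 822 and 842 TPM in AVP females. The groups overlapped in both sexes, and the highest library was 1.28 times the lowest. Tuba1c, the least abundant of the 3 alpha genes, was far lower, and Tubb4b, the member next above it in the order of levels, was 14.5 times Tuba1c on average. Its level was 12.7, 19.4, 13.7 and 12.6 TPM in saline males and 13.2, 17.02, 11.5 and 18.6 TPM in AVP males. In females it was 11.8, 16.003, 13.4 and 12.1 TPM with saline and 20.996, 17.01 and 20.8 TPM with AVP. All 3 AVP females were above all 4 saline females, while the males overlapped.

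Tubb2b was the most abundant beta isotype. Its values were 5686, 4997, 5236 and 4979.7 TPM in saline males and 5472, 5478, 4852 and 4931 TPM in AVP males. In saline females they were 5522, 5892, 5488 and 4882 TPM and in AVP females 5386, 4558 and 4343 TPM. AVP females 10 and 11 were again the lowest libraries, and AVP female 3 lay among the saline females. Its close relative Tubb2a measured 1553, 1241, 1340.4 and 1292 TPM in saline males and 1486, 1599.9, 1259 and 1114 TPM in AVP males. Saline females had 1630.3, 1421, 1378 and 1429.5 TPM and AVP females 1385, 1164 and 872 TPM. AVP female 3 exceeded saline female 14 by a few TPM, so the females overlapped by 1 library, and the AVP males spread to both sides of the saline males.

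Tubb3, the beta isotype used as a marker of neurons, had 2435, 1959, 2067 and 2031 TPM in saline males and 2199.7, 2195, 1911 and 1889 TPM in AVP males. The levels were 2371, 2302, 2081 and 2023 TPM in saline females and 2183, 1789.5 and 1696 TPM in AVP females. Both sexes overlapped, with AVP females 10 and 11 below all others. Tubb5, a beta isotype of progenitors and many other cells, was at 2401, 2100.3, 2120.1 and 2048 TPM in saline males and 2145, 2169, 1981 and 2113 TPM in AVP males. In females the values were 2305, 2325, 2138 and 2021 TPM with saline and 2288, 1954 and 1915 TPM with AVP. It varied least of the members, with a coefficient of variation of 6.71% over the 15 libraries.

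Tubb4a reached 266, 211, 228 and 237 TPM in saline males and 218, 219, 194 and 204 TPM in AVP males. Saline males 4, 12 and 13 were above all 4 AVP males, and saline male 5 lay between them. Tubb4a was 256, 249, 228 and 240.0 TPM in saline females and 228, 228 and 174 TPM in AVP females, where AVP female 11 was the lowest of all libraries. Tubb4b, a widely expressed isotype also found in cilia, was 227, 212, 204 and 204 TPM in saline males and 228, 239.6, 176 and 199 TPM in AVP males. It was 243, 234, 210.4 and 214 TPM in saline females and 228, 203 and 184 TPM in AVP females, with overlap in both sexes. Tubb6, a beta isotype of non-neuronal cells, was the least abundant member, at 3.84, 10.2, 7.62 and 7.73 TPM in saline males and 6.704, 7.86, 5.86 and 7.95 TPM in AVP males. It was 8.11, 7.25, 6.28 and 4.296 TPM in saline females and 10.9, 9.19 and 9.896 TPM in AVP females. The AVP females were above all saline females, and saline males 4 and 5 enclosed the AVP males from below and above.

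**Figure D1:**
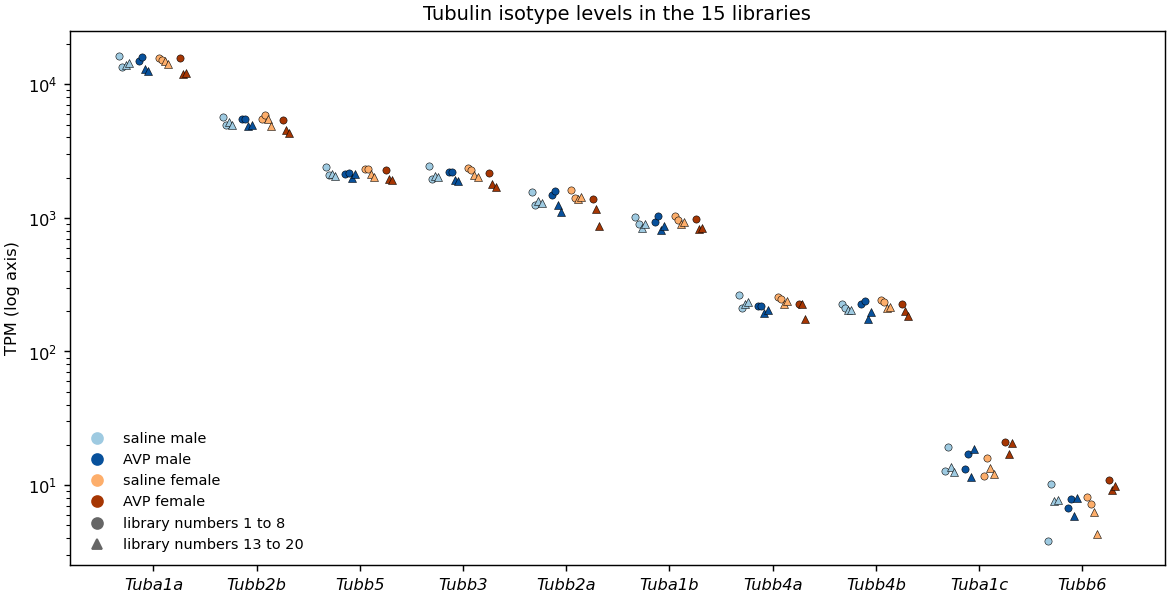
TPM of the 10 isotypes (log axis) in each of the 15 libraries, with 1 point per library, coloured by group and shaped by the block of library numbers. The isotypes span from 11934 to 16424 TPM for Tuba1a down to 3.84 to 10.9 TPM for Tubb6, and only Tuba1c and Tubb6 show the AVP females clear of the saline females.

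Mean TPM, which are per length and can be compared between genes, ranked the members as Tuba1a, Tubb2b, Tubb5, Tubb3, Tubb2a, Tuba1b, Tubb4a, Tubb4b, Tuba1c and Tubb6. Tuba1a was 2.76 ± 0.130 times Tubb2b (SD, n = 15 libraries), and Tubb2b was 2.43 ± 0.0902 times Tubb5. Tubb5 and Tubb3 did not differ beyond their spread, with Tubb5 higher in 10 of 15 libraries. The same held for Tubb4a and Tubb4b, where Tubb4a was higher in 11 of 15. Tubb2a exceeded Tuba1b in every library although their ranges overlapped, and the other neighbours had separate ranges. Among 10218 genes with at least 5 TPM in every library the median coefficient of variation was 12.3%. Tuba1a had 10.03%, Tubb3 10.1%, Tubb2a 14.8% and Tuba1c 21.9%, the largest of the 9 members in that set. Tubb6 was left out of it, being under 5 TPM in saline male 4 and saline female 15, and its highest library was 2.85 times its lowest.

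Summed over the 16 genes, alpha and beta tubulin made up 2.22 to 3.003% of a library's TPM. The alpha total was 17462, 14308, 14900.2 and 15464 TPM in saline males and 15928, 17042, 13829.5 and 13392 TPM in AVP males. In females it was 16741, 16219.8, 15912 and 15115 TPM with saline and 16643, 12798 and 13030.5 TPM with AVP. AVP females 10 and 11 were below every saline female and AVP female 3 was not. The ratio of alpha to beta TPM was 1.28 to 1.43 over the 15 libraries. The differences of the log2 alpha total, AVP minus saline, were -0.049 in males (exact two-sided permutation p = 0.657) and -0.19 in females (exact p = 0.2). Those of the beta total were -0.026 (exact p = 0.771) and -0.20 (exact p = 0.143). The log2 ratio differed by -0.023 in males (exact p = 0.6) and 0.017 in females (exact p = 0.686). With 4 libraries against 4, or 3 against 4, the smallest p this test can give is 0.0286.

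Within the alpha total, Tuba1a held 93.2 to 94.1%, Tuba1b 5.64 to 6.503% and Tuba1c 0.0704 to 0.160%. Within the beta total, Tubb2b held 44.8 to 47.6%, Tubb5 18.2 to 20.8%, Tubb3 18.05 to 19.4% and Tubb2a 9.49 to 13.4%. Tubb4a made up 1.84 to 2.303%, Tubb4b 1.69 to 2.05% and Tubb6 0.0305 to 0.108%. The mix of isotypes was thus narrow across libraries, with the ranges of the abundant members within a few percentage points. The 6 other genes were low. Tuba3b was listed at 0 in every library, Tuba4a, an isotype of muscle, platelets and mature neurons, was at 7.53 to 28.4 TPM, and Tuba3a, Tuba8, Tubal3 and Tubb1 were at most 0.279 TPM.

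In males, none of the 10 isotypes differed between AVP and saline by limma's test with Benjamini-Hochberg adjustment over all 15271 genes tested, 0 of 10 members against 0.00655% of all genes. At an unadjusted p under 0.05 it was 0 of 10 members against 13.5% of all genes. Groups that did not overlap in TPM were found for 0 of 10 members, against 0.733% of all genes with AVP higher and 6.54% with AVP lower. Fold changes are on the log2(TPM + 0.5) scale and are given with the standard error. The largest was that of Tubb4a, -0.17 ± 0.080 (adjusted p = 0.382; -0.19 without saline male 12), with a mean of 208 ± 12.002 TPM in AVP males and 235 ± 23.2 TPM in saline males (SD, n = 4 each). Tuba1a was at -0.052 ± 0.10 and Tubb3 at -0.050 ± 0.089, with adjusted p of 0.854 and 0.831. The members had a median of -0.015, and the median of all genes tested was -0.10. The 95% confidence interval of Tuba1a ran from -0.29 to 0.18 and that of Tubb6 from -0.56 to 0.59. TPM are shares of a library, so a gene's fold change also depends on what the rest of the library does. Scaling each library by the median ratio of its genes to their geometric means moved the median of all genes in males by 0.11, to 0.0033, and put Tuba1a, Tuba1b, Tubb2a, Tubb2b, Tubb3, Tubb4b and Tubb5 above 0 rather than below, while Tubb4a stayed below. Relative to the median of all genes, 9 of 10 members were higher with AVP under either scaling, Tuba1a by 0.051 and Tubb2a by 0.10, and Tubb4a was lower, at -0.069. These named shifts were smaller than the standard errors of the fold changes. As many genes lie above a median as below it, and the abundant members moved together, so the 9 are not separate results.

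In females the members parted into a high and a low group, though again 0 of 10 passed the adjusted threshold, where 0% of 15132 genes did by limma. At an unadjusted p under 0.05 there were 3 of 10 members, against 4.51% of all genes. Tubb6 had a mean of 10.003 ± 0.868 TPM in AVP females (SD, n = 3) and 6.48 ± 1.64 TPM in saline females (SD, n = 4), a log2 fold change of 0.62 ± 0.22. Tuba1c had 19.6 ± 2.24 TPM and 13.3 ± 1.91 TPM, a log2 fold change of 0.54 ± 0.15. Tubb2a went the other way, with 1141 ± 257 TPM and 1465 ± 113 TPM and -0.38 ± 0.15 on the same scale. By limma's test all 3 had an adjusted p of 0.999, so none of them is a call. Exact two-sided permutation tests of the same log2 values gave p = 0.0571 for each. The AVP females did not overlap the saline females for 2 of 10 members, Tuba1c and Tubb6, where AVP was higher, against 2.78% of all genes, and for 0 of 10 where AVP was lower, against 2.77%.

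The other 7 isotypes were lower on average in AVP females, from -0.10 ± 0.10 for Tubb5 to -0.22 ± 0.12 for Tubb3 on the log2 scale, and overlapped with saline. Tuba1a was at -0.19 ± 0.13, with a 95% confidence interval from -0.50 to 0.12. The median of the 10 members was -0.17 and that of all genes -0.051, and 2 of 10 members, Tuba1c and Tubb6, lay above the latter under either scaling. Within the block of library numbers 1 to 8, where AVP female 3 is set against saline females 6 and 7, the Tuba1a difference was 0.017, and within the block 13 to 20, with 2 libraries against 2, it was -0.27. Tubb6 was higher with AVP in both blocks, by 0.48 and 0.82, and so was Tuba1c, by 0.59 and 0.55.

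**Figure D2:**
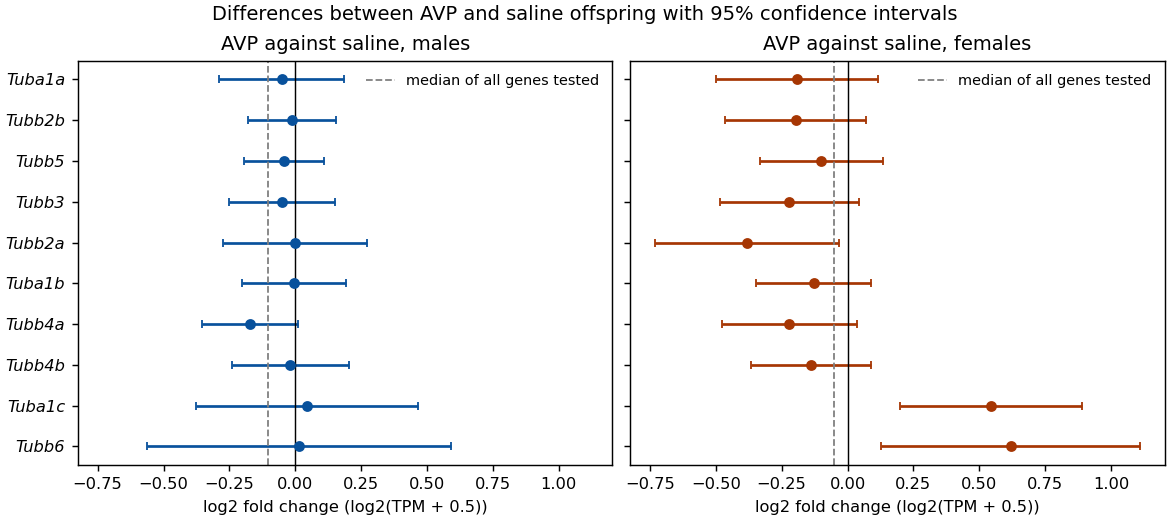
Log2 fold change (AVP against saline, log2(TPM + 0.5)) of each isotype in males and in females, with bars for the 95% confidence interval from limma and a dashed line at the median of all genes tested. In males the points lie between -0.17 and 0.044, and in females Tuba1c and Tubb6 lie at 0.54 and 0.62 while the other 8 are below 0.

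Over both sexes in 1 fit, 0 of 10 members passed the adjusted threshold by limma, as did 0% of 15078 genes. At an unadjusted p under 0.05 there was 1 of 10, against 10.4% of all genes. That member was Tubb4a, at -0.19 ± 0.066 (adjusted p = 0.462; -0.20 without saline male 12), on the same side in males and in females. This fit treats all libraries as independent, although brothers and sisters shared litters and could not be matched, so its p-values may be too small. For the interaction of treatment and sex, 0 of 10 members passed, with 0% of all genes passing. At an unadjusted p under 0.05 it was 0 of 10, against 4.14% of all genes. The female difference of Tubb6 exceeded the male one by 0.60 ± 0.35 and that of Tuba1c by 0.50 ± 0.25 on the log2 scale, with an adjusted p of 0.896 for each. By limma these differences in level were therefore not shown to depend on sex. The differences of shares between the sexes were tested apart and are given below.

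Shares are taken within a library, so a scaling that acts on a whole library drops out of them, but the shares of a family sum to 100% and do not vary independently. The beta share of Tubb4a was 2.12, 1.97, 2.03 and 2.19% in saline males and 1.85, 1.84, 1.86 and 1.95% in AVP males. All AVP males were below all saline males. The means were 1.88% ± 0.0509 with AVP and 2.08% ± 0.0981 with saline (SD, n = 4 each; exact two-sided permutation p = 0.0286). Without saline male 12 the difference was -0.217 percentage points (exact p = 0.0286). Without any 1 of the AVP males, or without saline male 13, the exact p was 0.0571. The difference was -0.199 within the library numbers 1 to 8 and -0.204 within 13 to 20, with 2 libraries against 2 in each. In females the Tubb4a share overlapped, with 2.08, 2.005, 1.98 and 2.22% in saline and 1.95, 2.303 and 1.89% in AVP females, and AVP female 10 was the highest of all libraries. Markers of oligodendrocyte precursors, which are not the myelinating cells that Tubb4a is known from, summed to 48.6 to 74.8 TPM in AVP males and 59.6 to 78.3 TPM in saline males, and their part in the Tubb4a share was not tested.

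The beta share of Tubb5 was 18.7, 18.7, 18.5 and 18.7% in saline females and 19.5, 19.7 and 20.8% in AVP females. The saline females were within a fraction of a percentage point of each other, and all AVP females were above them. The means were 20.03% ± 0.697 (SD, n = 3) and 18.7% ± 0.0763 (SD, n = 4; exact permutation p = 0.0286). In males the Tubb5 share overlapped, at 19.1, 19.6, 18.9 and 18.97% with saline and 18.2, 18.2, 19.1 and 20.2% with AVP, and its difference had opposite signs in the 2 blocks of library numbers, -1.103 and 0.705 percentage points. The TPM of Tubb5 itself was not higher in AVP females, at 2052 ± 205 TPM against 2197 ± 144 TPM, while Tubb2a held 11.02% ± 1.33 of the beta total in AVP and 12.5% ± 0.907 in saline females (exact permutation p = 0.2). The 8 markers of dividing cells, where Tubb5 is also known to be abundant, summed to 336 to 431 TPM in AVP and 274 to 346 TPM in saline females, and whether they bear on the Tubb5 share was not tested.

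Tuba1c held 0.0704, 0.0987, 0.0840 and 0.0802% of the alpha total in saline females and 0.126, 0.133 and 0.160% in AVP females. Tubb6 held 0.0657, 0.0583, 0.0545 and 0.0397% of the beta total in saline females and 0.0933, 0.0928 and 0.108% in AVP females. Both were higher in each AVP female than in any saline female (exact permutation p = 0.0286 for each, n = 3 against 4). Of the 26 exact tests of shares, totals and ratios in the 2 sexes, these 4 were at the smallest p the test can give, and the other 22 had p of 0.143 or more. No correction was made for the 26 tests, nor for the choice of members with earlier results of these data known. The difference between the sexes was 1.58 percentage points for the Tubb5 share (exact permutation of treatment within sex, p = 0.038) and 0.0458 for the Tubb6 share (exact p = 0.0424), the 2 lowest of 13 such tests. Without saline male 12 these were 1.65 (exact p = 0.0392) and 0.0453 (exact p = 0.0612). The permutation of treatment within sex takes as its null no effect of treatment in either sex, rather than an equal effect in both. It also treats brothers and sisters as independent, although they shared litters, so its p-values may be too small.

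**Figure D3:**
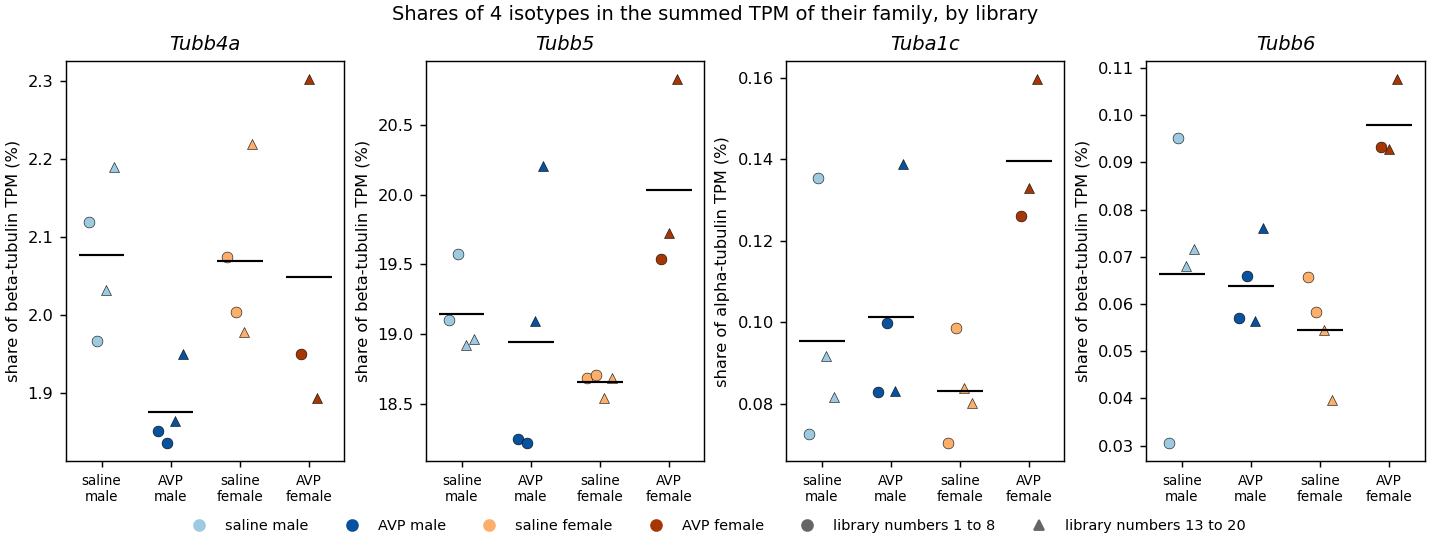
Share of Tubb4a, Tubb5 and Tubb6 in the summed beta TPM and of Tuba1c in the summed alpha TPM (percent, axes not from 0), with 1 point per library, a line at each group's mean, colours for groups and shapes for the blocks of library numbers. AVP males lie below saline males for Tubb4a, and AVP females lie above saline females for Tubb5, Tuba1c and Tubb6.

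Across the 15 libraries the 8 abundant members moved together. Their 28 pairs had Pearson's r of 0.646 to 0.942 on log2(TPM + 0.5), with a median of 0.813. The TPM of a library share its total, so these values are a description. The range was 0.412 to 0.942 within library numbers 1 to 8, 0.425 to 0.922 within 13 to 20 and 0.628 to 0.927 after each group's mean was removed. Tuba1a and Tubb3, the neuronal alpha and beta isotypes, gave r = 0.942 and Spearman's rho = 0.936 (permutation p = 1e-05 for both, the smallest that 100000 permutations can give), and r = 0.911 without AVP females 10 and 11, the 2 libraries farthest from the median of Tuba1a, 0.854 within library numbers 1 to 8 and 0.922 within 13 to 20. With the summed markers of cortical neurons no relation passed the test, with r = -0.265 for Tuba1a (rho = -0.232, permutation p = 0.34 and 0.407) and r = -0.269 for Tubb3 (rho = -0.254, permutation p = 0.331 and 0.36). Within the blocks these signs turned, to 0.212 and 0.321 for Tuba1a and 0.379 and 0.326 for Tubb3, and without the 2 libraries farthest from the median r was -0.382 and -0.424. In bulk tissue fewer cells of a type and less RNA per cell cannot be told apart. Tuba1c and Tubb6 had r of -0.541 to -0.0563 with the other 8 members, and r = 0.737 with each other (rho = 0.729, permutation p = 0.0015 and 0.00272, 0.633 without AVP females 3 and 11, 0.704 and 0.778 within the blocks, 0.583 with group means removed).

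**Figure D4:**
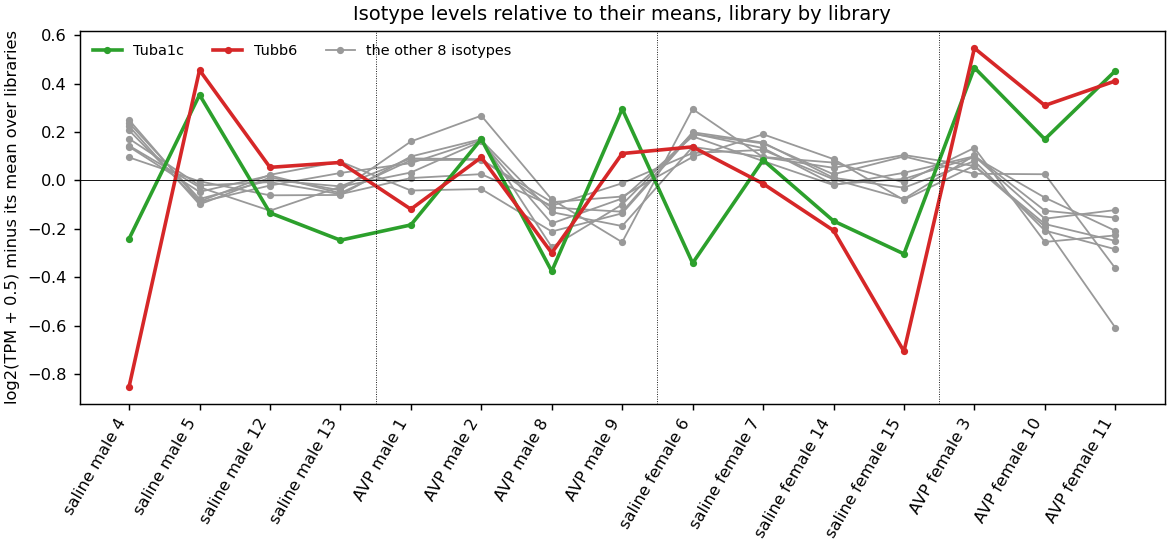
Log2(TPM + 0.5) of each isotype minus its own mean over the 15 libraries, library by library, with dotted lines between the groups. The 8 abundant isotypes (grey) follow each other, and Tuba1c and Tubb6 (coloured) depart from them, for example in saline male 4, saline male 5, saline female 15 and the AVP females.

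The common movement went in part with the blocks of library numbers. Mean Tuba1a was 15318 ± 982 TPM in the 7 libraries numbered 1 to 8 and 13409 ± 1159.7 TPM in the 8 numbered 13 to 20 (SD). The ratio of the means was 1.14 for Tuba1a and 1.15 for Tubb3, and over the 10 members it ran from 1.06 for Tuba1c to 1.197 for Tubb2a. With treatment and sex in the fit, 10 of 10 members were higher in the first block and 0 of 10 passed the adjusted threshold by limma, as did 0% of all genes (adjusted p from 0.117 to 0.845). With median-of-ratios scaling 10 of 10 were higher as well. At an unadjusted p under 0.05, 7 of 10 members were higher in the first block, against 6.29% of all genes. This comparison of the blocks was added after the values were seen. The abundant members moved together, so the 7 are not separate results to set against that share. The median log2 difference of all genes was -0.027, and those of Tuba1a and Tubb4b were 0.19 ± 0.063 and 0.21 ± 0.045. In males, the AVP difference of Tuba1a was 0.060 in the first block and -0.16 in the second, and that of Tubb2a was 0.15 and -0.15. Only Tubb4a and Tubb5 had the same sign in both blocks in males.

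Tubb6 followed the markers of vessels and meninges. Over the 15 libraries its log2 level had r = 0.950 with the summed level of 8 endothelial markers such as Cldn5, Kdr and Pecam1 (rho = 0.907, permutation p = 1e-05 and 3e-05), and 0.908 without saline male 4 and saline female 15. It was 0.964 in the 7 libraries of the first block, 0.955 in the 8 of the second, 0.953 with group means removed and 0.957 without saline male 12. With 6 markers of mural cells r was 0.923 (rho = 0.896, permutation p = 1e-05 and 3e-05, 0.858 without the same libraries, 0.960 and 0.885 within the blocks), and with 8 markers of meningeal fibroblasts 0.856 (rho = 0.839, permutation p = 3e-05 and 0.00022, 0.749 without them, 0.871 and 0.921 within the blocks). For Tuba1c and the endothelial markers r was 0.684 (rho = 0.732, permutation p = 0.00358 and 0.00262, 0.621 without AVP females 3 and 11, 0.723 and 0.637 within the blocks), and it fell to 0.549 with group means removed. With group means removed r of Tuba1c was 0.491 with mural and 0.4925 with fibroblast markers, from 0.662 and 0.668, and those of Tubb6 were 0.906 and 0.808. Relations of Tuba1c with the other marker lists were not tested, so these lists need not be the ones it follows most closely. Red blood cell markers summed highest in AVP female 11, AVP male 9, AVP female 3 and saline male 5. Their sums there were 13658, 10049, 7387 and 7128 TPM, and Tuba1c was highest in the same libraries. The relations given in full are among 10 picked after their values were seen, and 45 pairs of members were computed beside them. Their p-values account neither for that choice nor for the litters that brothers and sisters shared.

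The same marker lists separated the females. Endothelial markers summed to 179.7 to 186 TPM in AVP and 102 to 164 TPM in saline females. Mural markers were at 142 to 151 TPM and 96.6 to 124 TPM, and meningeal fibroblast markers, among them Col1a1, Col3a1 and Dcn, at 174 to 258 TPM and 109 to 128 TPM. The sums of all 3 lists were higher in every AVP female than in any saline female, the pattern also seen for Tubb6 and Tuba1c. Single markers differed in this. The female groups were apart for Col1a1, Col3a1 and Dcn, and overlapped for others in each list, among them Cldn5, Acta2 and Foxc1. In males the lists overlapped, with 145 to 168 TPM of endothelial markers in AVP and 115 to 206 TPM in saline males. Saline male 4 had the lowest fibroblast sum, 54.3 TPM, and the lowest Tubb6, and saline male 5 had the highest endothelial sum, 206 TPM, and the highest Tubb6 and Tuba1c of the males. All 22 markers of these lists were detected in each library. Sums of other lists also lay apart or shifted in part between the female groups. Markers of oligodendrocyte precursors were lower in every AVP female, at 33.7 to 61.1 TPM against 62.5 to 94.6 TPM, with the groups apart for Olig1 and Olig2. Markers of red blood cells were at 5129 to 13658 TPM against 2241 to 5707 TPM, those of choroid plexus at 26.9 to 2288 TPM against 7.98 to 963 TPM, and those of striatal neurons at 55.6 to 159.6 TPM against 89.7 to 185 TPM, each with overlap. The choroid plexus marker Otx2 and, among markers of dividing cells, Cdk1 and Mcm2 were higher in all AVP females than in any saline female. Of the 102 markers of the 15 cell type lists tested in females, 0 passed the adjusted threshold by limma and 27 had an unadjusted p under 0.05, against 4.51% of all genes. How far the amounts of these cells in the dissected tissue enter the Tubb6 and Tuba1c values was not tested.

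**Figure D5:**
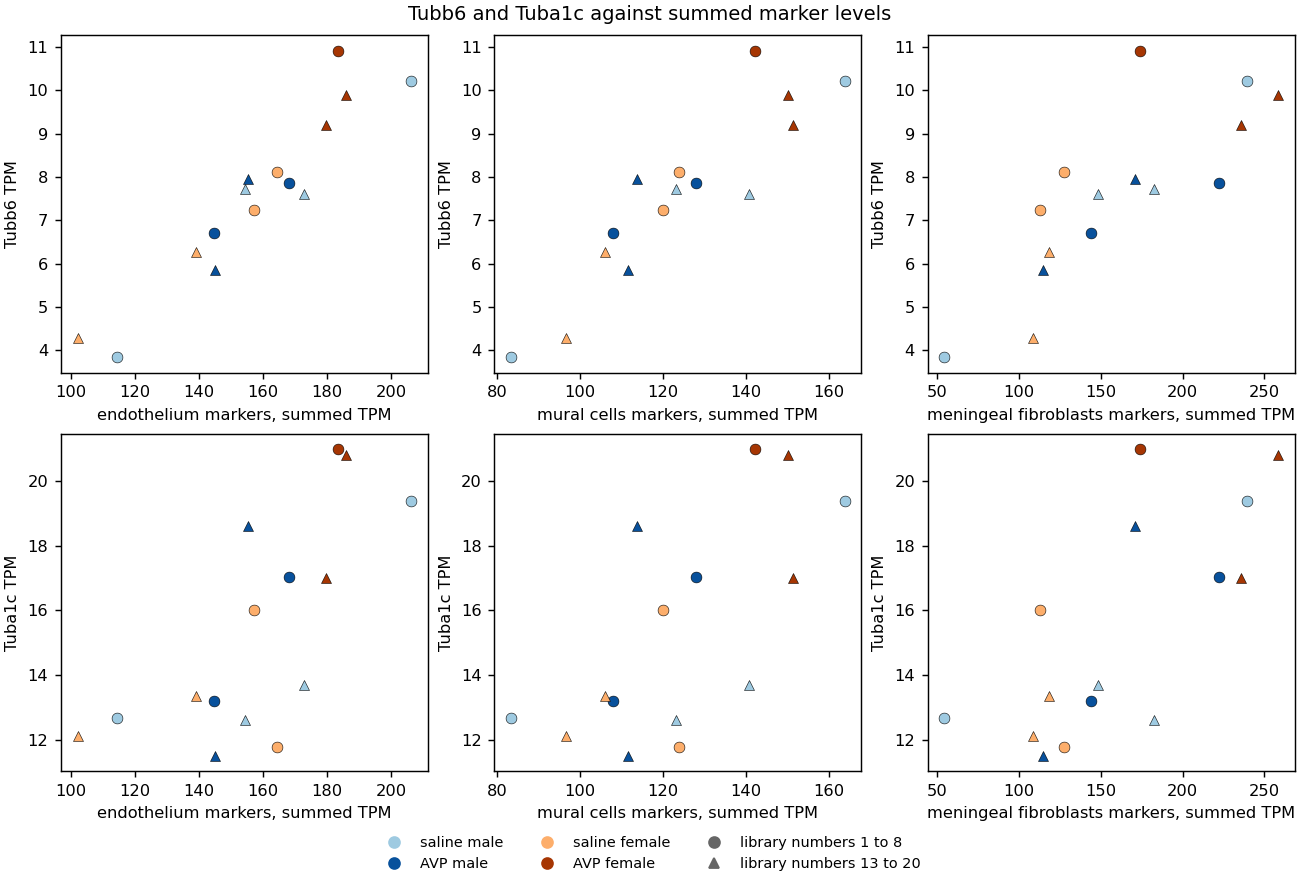
TPM of Tubb6 (top) and Tuba1c (bottom) against the summed TPM of markers of endothelium, mural cells and meningeal fibroblasts, with 1 point per library. Tubb6 goes up with each sum, with r of 0.856 to 0.950 on the log2 scale, Tuba1c follows less closely, and the AVP females lie towards the upper right of each panel.

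The genes most like a member were taken by Pearson's r over the 15 libraries among 10209 genes with at least 5 TPM in each, and are a description without a test. For Tuba1a they were Rcl1 (r = 0.902), Stmn3 (r = 0.902) and Myl6b (r = 0.900). Stmn3 encodes a neuronal stathmin, a protein that binds tubulin dimers. For Tubb3 they were Aplp1 (r = 0.974), Tmub1 (r = 0.938) and Myl6b (r = 0.930), of which Aplp1 encodes a neuronal relative of the amyloid precursor protein. For Tubb6 they were Cxcl12 (r = 0.958), Aplnr (r = 0.952) and Bgn (r = 0.951). Cxcl12 encodes a chemokine made by meninges and vessels, Aplnr the apelin receptor of endothelium and Bgn the matrix proteoglycan biglycan.

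Genes that act on tubulin were counted from lists of other tubulins, folding factors, modifying enzymes, microtubule-associated proteins, stathmins with severing enzymes, and motors. Of the 89 genes of the 6 lists tested, 0 passed the adjusted threshold in either sex by limma. At an unadjusted p under 0.05 there were 8 in males and 4 in females, 8.99% and 4.49% of them, against 13.5% and 4.51% of all genes. Values are log2 fold changes with standard errors, and the adjusted p of those named was 0.304 or more in males and 0.999 or more in females. Of the 5 other tubulins tested, 3 were below 0 in each sex. Tube1 was at -0.27 ± 0.18 and Tuba4a at 0.31 ± 0.30 in males, and the gamma tubulins Tubg2 and Tubg1, which nucleate microtubules, were at -0.25 ± 0.14 and -0.085 ± 0.10 in females. Tubulin folding genes, the chaperonin subunits, prefoldins and tubulin cofactors, were above 0 for 16 of 20 in males (median 0.045) and for 4 of 20 in females (median -0.072). In males the chaperonin subunit Tcp1 was at 0.17 ± 0.048 and Pfdn2 at 0.23 ± 0.085, the 2 of 20 genes of that list with an unadjusted p under 0.05, against 13.5% of all genes. In females Pfdn2 was at -0.14 ± 0.078 and Pfdn6 at -0.13 ± 0.088.

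Modifying enzymes were below 0 for 12 of 17 in males and 15 of 17 in females, with medians of -0.083 and -0.13. In males the deglutamylase Agbl5 was at -0.41 ± 0.12 and the acetyltransferase Atat1 at -0.29 ± 0.098, which are among the 4 of 17 in this list with an unadjusted p under 0.05, against 13.5% of all genes. In females Agbl3 was at 0.24 ± 0.11 and Agtpbp1 at -0.31 ± 0.15. Microtubule-associated proteins were below 0 for 18 of 22 in males and 16 of 22 in females. Camsap3, which binds microtubule minus ends, was at -0.24 ± 0.10 in males and -0.28 ± 0.11 in females, Clip1 at -0.27 ± 0.12 in males and Mapt, which encodes tau, at -0.32 ± 0.18 in females. Among stathmins and severing enzymes, Stmn3 was at -0.30 ± 0.098 and Stmn4 at -0.30 ± 0.11 in females. In males Stmn4 was at 0.18 ± 0.081, on the other side of 0. Motors were below 0 for 11 of 16 in males, where Kif5a was at -0.19 ± 0.084 and Kif21b at -0.19 ± 0.090, and for 13 of 16 in females, where the dynein chain Dync1i1 was at -0.17 ± 0.10 and Nde1 at 0.27 ± 0.17. The medians of all genes were below 0 as well in both sexes, at -0.10 and -0.051.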

How the data were processed

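Dorsal forebrains of E18 embryos were sequenced as stranded, poly(A)-selected libraries with paired-end reads. Per the paper's methods, the authors trimmed reads with Trim Galore 0.4.1, checked them with FastQC 0.5.2 and quantified transcripts with Kallisto 0.43.1 against GENCODE M16 (GRCm38). The deposited table holds TPM for 133849 transcripts in 15 libraries, each summing to 1000000, so the read depth of each library is unknown. The table does not name its unit.

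Transcripts were summed to genes with GENCODE M21, leaving out 404 transcripts (0.154 to 0.199% of TPM). Values were tested as log2(TPM + 0.5), a scale that understates changes of low genes, with limma 3.58.1 (R 4.3.3) and a mean-variance trend, over genes at 1 TPM or more in 50% or more of the libraries compared, with Benjamini-Hochberg adjustment over all of them. Calls were made at 0.05. The males and the females were fitted separately, and both sexes and the interaction in 1 fit of all libraries. Shares, totals and single genes were compared by two-sided exact permutation over libraries. The fits were tested on simulated data. Alternatives were other pseudocounts, filters and scalings, protein-coding transcripts only, the block of library numbers as a term, 1 shared fit, and leaving out each library. Members and lists were chosen with earlier results of these data known. Named were all 10 members, the 3 genes most like Tuba1a, Tubb3 and Tubb6, and the 2 genes of each list with the smallest p in each sex, of which 1 is not reported here.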

Additional observations from a re-analysis of the deposited data

Results flagged for a closer look

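Tuba1c reached 19.4 TPM in saline male 5, while the other 3 saline males had 12.6 to 13.7 TPM, a gap that passes Dixon's test at 95%. The Tubb5 share of saline female 14, 18.5% of beta TPM, lay below the other 3 saline females, which were within 18.68 to 18.70%, a narrow range. In all 69 groups of values were examined this way and 2 stood apart, where chance would give about 3.45. The effect of AVP on the Tubb5 share was 1.58 percentage points higher in females than in males (exact permutation of treatment within sex, p = 0.0380). The effect on the Tubb6 share was 0.0458 percentage points higher in females (exact permutation p = 0.0424), and p was 0.0612 without saline male 12, the library whose sex-linked transcripts go against its label. These were 2 of 13 such differences tested, with no correction for that number or for the litters that brothers and sisters shared. The null of this permutation is no effect of treatment in either sex.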

How the results depend on the processing

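No member was called in any comparison under any alternative run, and the smallest adjusted p of a member was 0.319 in males, 0.472 in females, 0.0895 over both sexes and 0.619 for the interaction. Among all genes in males, 1 was called, 0 with a pseudocount of 1, with the filter of 5 TPM, with the block of library numbers as a term, with protein-coding transcripts only and in 1 fit of all 15 libraries, 2 without the trend, and 0 to 6 when 1 library was left out (0 without AVP male 1 or saline male 5, 12 or 13, 5 without AVP male 8 or 9, 6 without AVP male 2). Leaving out 1 library gave 0 to 6 calls in females (1 without saline female 7 or AVP female 11, 6 without saline female 15), 0 to 1 over both sexes (1 without AVP female 10) and 0 to 1 for the interaction (1 without saline male 4). In males quantile normalization put Tubb2b at 0.021, and median-of-ratios scaling put Tuba1a at 0.061, Tuba1b at 0.11, Tubb2a at 0.11, Tubb2b at 0.10, Tubb3 at 0.063, Tubb4b at 0.094 and Tubb5 at 0.071 on the log2 scale. Over both sexes that scaling put Tuba1b at 0.013, Tubb4b at 0.000332 and Tubb5 at 0.0063. For the interaction quantile normalization put Tubb4a at 0.000464 and Tubb5 at 0.051. Scaling gave no member another sign in females.

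Leaving out 1 library in males gave ranges of -0.11 to 0.0062 for Tuba1a, -0.064 to 0.049 for Tuba1b, -0.062 to 0.18 for Tuba1c, -0.082 to 0.092 for Tubb2a, -0.039 to 0.030 for Tubb2b, -0.087 to 0.018 for Tubb3, -0.084 to 0.064 for Tubb4b, -0.068 to 0.0080 for Tubb5 and -0.25 to 0.19 for Tubb6. The interaction of Tubb4a ranged from -0.11 to 0.081. Differences of male shares ranged from -0.00674 to 0.0192 percentage points for Tuba1c, -0.154 to 0.774 for Tubb2a, -0.0302 to 0.0759 for Tubb4b, -0.622 to 0.0429 for Tubb5, -0.0145 to 0.00714 for Tubb6 and -0.239 to -0.164 for Tubb4a. Those of the male log2 totals ranged from -0.11 to 0.0088 for alpha, -0.060 to 0.025 for beta and -0.051 to 0.0019 for their ratio. In females, where the smallest p without 1 library is 0.0667 or 0.1, the ranges were 0.980 to 1.62 for Tubb5, 0.0462 to 0.0630 for Tuba1c and 0.0384 to 0.0471 for Tubb6, with exact permutation p of 0.0667 to 0.1 for each. The causes of these changes were not tested. No paired analysis was possible, because AVP and saline embryos came from different dams and the labels do not link brothers and sisters. TPM carry no depth and the paper gives only an average over samples. Counting error of the low members Tuba1c and Tubb6 in each library was therefore not given.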
